A study of Mus musculus with 3 samples.

Results

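TRBV19, the gene of the Vβ6 family (RefSeq lists Tcrb-V6 as a synonym), was followed through the TCR beta chains of CD4, CD8 and double-negative (DN) T cells. Its members were all clonotypes whose best V gene was TRBV19 and whose best J gene was a TRBJ gene, where a clonotype is a set of reads with a common V gene, J gene and nucleotide sequence of the CDR3. There were 3296 of them for CD4, 7098 for CD8 and 3051 for DN T cells, together 13445 of the 167967 TCR beta clonotypes in the 3 tables and 12570 different ones. The study set DN T cells, αβ T cells without either coreceptor that accumulate in lupus, beside the CD4 and CD8 T cells of the same animal. All 3 libraries came from the spleen of 1 male MRL.lpr mouse aged 16 weeks, a lupus-prone strain in which the lpr mutation of Fas was thus shared by all subsets, and no treatment was named. Each library was made from the mRNA of 1000000 sorted cells with a kit that amplifies TCR alpha and beta transcripts, and held 133667 (CD4), 150874 (CD8) and 194290 (DN) TCR beta reads. The files hold TCR sequences only, so the sorted subsets could not be checked against marker genes.

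With 1 library per subset from 1 mouse, no difference between subsets has a replicate check and no p-value is given. The values in brackets are 95% intervals, Wilson for shares and log-normal for ratios. They cover counting error only. The tables count reads with no molecular identifier, and several reads can be PCR copies of 1 molecule. Intervals over reads take each read as independent, so they can be too narrow even for counting error. Without its 10 largest clonotypes, for example, the TRBV19 share of DN reads was 5.33% in place of 6.38%, outside its interval. Overlap of intervals over reads is thus given as a description. The libraries had many clonotypes in common. The TRBV19 shares, in-frame shares, J cluster and D shares, CDR3 lengths and top 10 shares were therefore also computed without these, and the values are given where an order beyond counting error changed.

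A TCR beta chain is put together in the thymus by joining a V, a D and a J gene, with bases trimmed from the gene ends and others added at random between them. The CDR3 spans this junction, from the conserved cysteine near the end of the V gene to a conserved phenylalanine in the J gene, and is the part of the chain that lies over the peptide held by the MHC molecule. In RefSeq, Trbv19 lies on chromosome 6 between the pseudogene Trbv18 and Trbv20, ahead of Trbd1 and the Trbj1 genes, which are followed by Trbd2 and the Trbj2 genes. Vβ6 is known as one of the Vβ families that respond to the Mtv-7 superantigen in strains that carry this endogenous provirus.

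The CDR3s began with a stretch that TRBV19 clonotypes had in common, the 14 bases that a base-by-base majority over the 12570 different clonotypes gave:

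TRBV19 start: tgtgccagcagtat

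The first 4 codons spell the cysteine, alanine and serines, and the last 2 bases begin a codon that can only encode isoleucine or methionine. Below are the largest TRBV19 clonotype of CD4 and of CD8 T cells, the third largest of CD8 T cells, and 5 of DN T cells (the 4 largest, and the largest out-of-frame one). They are shown because they carry the contrast in sharing described further on. Each is named by the library in which its share was highest and its rank among the TRBV19 clonotypes there. Capitals mark the junction, the bases that match neither this start nor the common end of the J gene.

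CD4-1: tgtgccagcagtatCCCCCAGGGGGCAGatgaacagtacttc
CD8-1: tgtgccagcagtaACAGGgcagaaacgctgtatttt
CD8-3: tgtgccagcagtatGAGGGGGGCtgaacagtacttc
DN-1: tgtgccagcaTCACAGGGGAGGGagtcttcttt
DN-2: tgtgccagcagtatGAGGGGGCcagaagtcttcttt
DN-3: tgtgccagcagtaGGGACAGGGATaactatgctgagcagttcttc
DN-4: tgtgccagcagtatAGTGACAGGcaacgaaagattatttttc
DN-7: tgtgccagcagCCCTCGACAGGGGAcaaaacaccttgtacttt

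TRBV19 was a medium-sized family in all 3 libraries and had its highest share in CD8 T cells. It took 6.57% (6.44 to 6.70) of TCR beta reads in CD4, 7.91% (7.78 to 8.05) in CD8 and 6.38% (6.27 to 6.49) in DN T cells. Counted as clonotypes, its share was 7.36% (7.12 to 7.60), 8.74% (8.55 to 8.94) and 7.27% (7.03 to 7.53). The order of the libraries was thus CD8 first by either unit, with CD4 and DN close together.

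**Figure D1:**
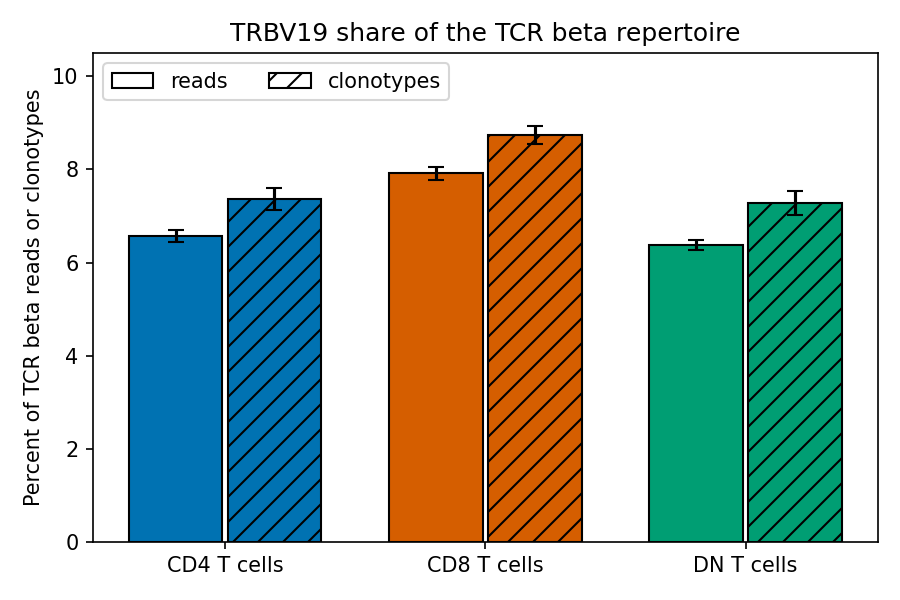
Percent of TCR beta reads (plain bars) and of TCR beta clonotypes (hatched bars) with TRBV19 in the CD4, CD8 and DN libraries, 1 library each, with 95% Wilson intervals as error bars. The CD8 bars, at 7.91% and 8.74%, stand above those of CD4 and DN T cells, which lie between 6.38% and 7.36%.

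The DN share of reads was 0.806 times that in CD8 (0.786 to 0.825), and the CD4 share 0.830 times (0.808 to 0.852). Over clonotypes the same ratios were 0.832 (0.799 to 0.867) and 0.842 (0.809 to 0.876), so DN and CD4 T cells were below CD8 T cells by either unit. DN and CD4 T cells differed little, with a ratio of 0.970 (0.945 to 0.996) over reads and 0.989 (0.943 to 1.04) over clonotypes, the latter within counting error. This small difference over reads turned round in the clonotypes found in 1 library only, where the DN share was 1.10 times that in CD4.

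By share of reads TRBV19 ranked seventh in CD4, sixth in CD8 and eighth in DN T cells. In CD4 T cells it stood below TRBV4 (8.44%) and above TRBV1 (6.48%, 6.35 to 6.62), whose interval overlapped its own. In CD8 T cells its neighbours were TRBV13-2 (9.81%) above and TRBV17 (6.82%) below, and in DN T cells TRBV5 (6.88%, 6.77 to 6.997) and TRBV4 (3.66%), none of which overlapped it. The V gene with the most similar pattern of read shares over the 3 libraries was TRBV31, the Vβ14 gene. It lies at the far end of the locus and rearranges by inversion. TRBV31 took 9.62% of reads for CD4, 11.5% for CD8 and 9.36% for DN T cells, and its centred log2 shares lay at a distance of 0.009 from those of TRBV19. Among the 12 V genes compared, those with at least 1% of reads in every library, the next were TRBV13-2 at 0.609 and TRBV1 at 0.652. This likeness is a description of read shares over 3 libraries, and it was less close by clonotypes. There TRBV31 was at 8.97% (8.70 to 9.23) in CD4, 11.6% in CD8 and 7.75% (7.50 to 8.01) in DN T cells. CD4 and DN T cells thus did not overlap for TRBV31, while they did for TRBV19.

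Most TRBV19 rearrangements could encode a protein. The CDR3 was in frame and free of stop codons in 92.0% (91.0 to 92.9) of TRBV19 clonotypes in CD4, 95.6% (95.1 to 96.1) in CD8 and 90.4% (89.3 to 91.4) in DN T cells. The other TRBV genes had 92.2%, 95.1% and 91.1%, so TRBV19 followed its library in each case. Of the remainder, 252, 295 and 279 TRBV19 clonotypes had a shifted frame and 12, 16 and 13 a stop codon. Among the shifted ones, 22.2% for CD4, 23.1% for CD8 and 20.8% for DN T cells were a gap of 1 base away from an in-frame clonotype of the same V and J gene, against 27.3%, 30.5% and 30.2% for the other TRBV genes.

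Weighted by reads, TRBV19 stood apart from the other V genes in DN T cells alone. There, 93.8% (93.4 to 94.2) of TRBV19 reads were in frame, against 95.4% (95.3 to 95.5) of other TRBV reads, while the values were 94.8% against 94.8% in CD4 and 96.4% against 96.2% in CD8 T cells. In DN T cells a pair of clonotypes, the 2 largest nonproductive TRBV19 ones, had 233 reads together. Without them, 95.6% of TRBV19 reads were in frame, and 95.7% of other TRBV reads without the 2 largest nonproductive ones there. TRBV19 had fewer nonproductive clonotypes to remove from, 279 shifted and 13 with a stop codon, against 3249 and 219. The removal thus raised the TRBV19 value more by its design, and it does not show what made the difference. The larger of the TRBV19 pair was DN-7, joined to TRBJ2-4, with 134 reads in DN, 22 in CD8 and 7 in CD4 T cells. DN-7 was also the largest out-of-frame TRBV19 clonotype of CD8 T cells. The largest out-of-frame one of CD4 T cells, CD4-16 (TRBJ1-5), had 37 reads there and 2 in each of the other libraries.

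TRBV19 was joined to genes of the TRBJ1 cluster more often than the other V genes were, in each library. The TRBJ1 cluster supplied 42.3% (40.6 to 44.0) of TRBV19 clonotypes in CD4, 33.3% (32.3 to 34.5) in CD8 and 33.9% (32.3 to 35.6) in DN T cells, against 35.5%, 30.1% and 28.9% for the other TRBV genes. By reads the TRBJ1 shares were 40.4%, 31.7% and 35.2%, again above the 32.1%, 29.8% and 24.3% of the other TRBV genes. The remainder used the TRBJ2 cluster, which lies farther from the V genes.

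Counted as clonotypes, several J genes differed in the same direction in all 3 libraries. TRBJ1-6 was found in 5.28% (CD4), 4.44% (CD8) and 5.74% (DN) of TRBV19 clonotypes, which was 1.51, 1.30 and 1.501 times its share among other TRBV clonotypes. For TRBJ1-1, with 11.7%, 10.003% and 10.1%, the ratios were 1.21, 1.19 and 1.18. TRBJ1-3 made up 6.95%, 5.89% and 4.49%, with ratios of 1.19, 1.28 and 1.19. TRBJ1-4 was at 9.95%, 6.73% and 7.54%, with ratios of 1.33, 1.07 and 1.17, and its CD8 interval (6.17 to 7.34) took in the 6.32% of the other V genes. By clonotypes, these 4 genes of the first cluster thus had the higher share with TRBV19 in every library. By reads this held for TRBJ1-1, TRBJ1-4 and TRBJ1-6, while TRBJ1-3 was lower with TRBV19 in CD8 (5.84% against 6.72%) and DN T cells (2.58% against 3.36%).

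Lower with TRBV19 in every library, by clonotypes, were TRBJ2-7 and TRBJ2-5. TRBJ2-7 was the most frequent J gene among the TRBV19 clonotypes of each library. It made up 13.4% for CD4, 19.2% for CD8 and 19.99% for DN T cells, or 0.752, 0.901 and 0.848 times its share among the other V genes. TRBJ2-5 was at 8.86%, 11.2% and 10.6%, or 0.723, 0.822 and 0.879 times. By reads TRBJ2-5 was lower as well, while TRBJ2-7 in CD4 T cells stood at 18.01% (17.2 to 18.8) with TRBV19, an interval that took in the 17.9% of the other V genes. In DN T cells TRBJ2-1 led by reads, with 23.9% against 15.95% for TRBJ2-7. By clonotypes, the other genes changed direction between libraries, as TRBJ2-1 did, with 10.9% in CD4 (0.858 times), 15.3% in CD8 (1.10 times) and 17.1% in DN T cells (1.08 times). TRBJ2-3 (10.6%, 7.79% and 8.62%), TRBJ2-4 (8.31%, 7.99% and 6.39%), TRBJ2-2 (5.67%, 5.11% and 3.31%), TRBJ1-2 (4.92%, 4.35% and 3.93%) and TRBJ1-5 (3.49%, 1.93% and 2.10%) supplied the rest. TRBJ2-6, which RefSeq lists as a pseudogene, was in 1 TRBV19 clonotype, in CD8 T cells.

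**Figure D2:**
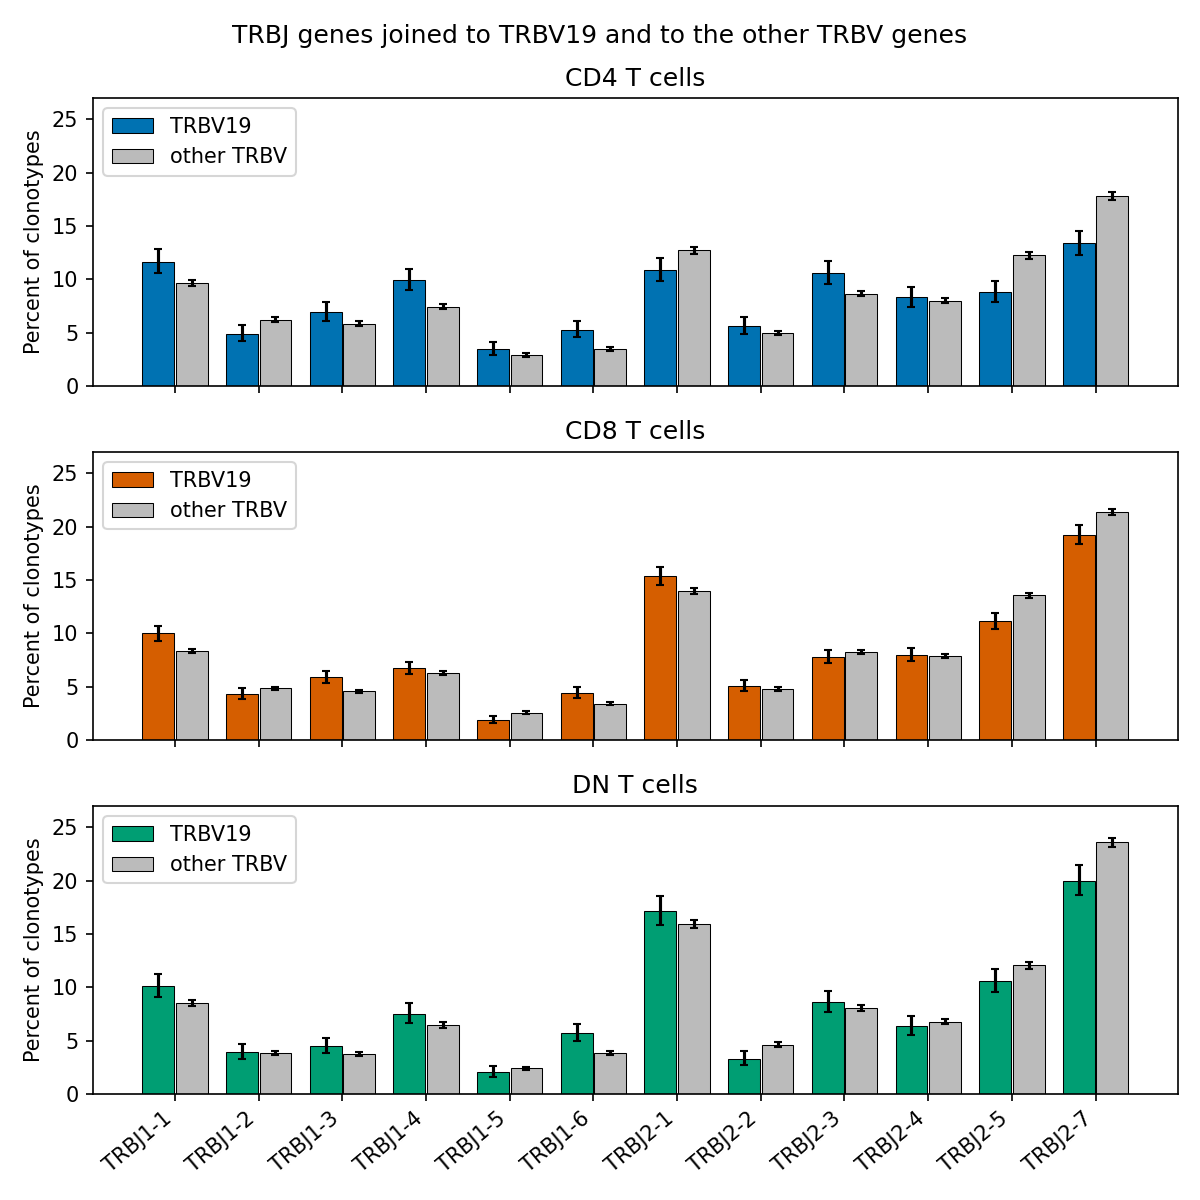
Percent of clonotypes with each TRBJ gene among TRBV19 clonotypes (coloured bars) and among the clonotypes of all other TRBV genes (grey bars) in the CD4, CD8 and DN libraries, with 95% Wilson intervals. TRBJ1-6 was higher with TRBV19 in each library (5.28%, 4.44% and 5.74%) and TRBJ2-7 lower (13.4%, 19.2% and 19.99%).

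CD4 T cells also differed from CD8 and DN T cells within TRBV19. Their TRBJ1 share of 42.3% was above the 33.3% and 33.9% of the other libraries, with intervals that did not overlap, while CD8 and DN T cells overlapped each other. By reads the CD8 share of 31.7% (30.9 to 32.5) and the DN share of 35.2% (34.4 to 36.1) did not overlap. By clonotypes TRBJ2-1 and TRBJ2-7 were lower in CD4 T cells and TRBJ1-4 was higher. By reads the order turned for TRBJ2-7 between CD4 and DN T cells, with 18.01% (17.2 to 18.8) and 15.95% (15.3 to 16.6). Among other TRBV clonotypes the TRBJ1 share was likewise highest in CD4 T cells.

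TRBD1 was called in 49.5% (47.8 to 51.2) of TRBV19 clonotypes for CD4, 41.4% for CD8 and 40.6% for DN T cells, TRBD2 in 26.5% (25.1 to 28.1), 32.4% (31.3 to 33.5) and 37.2% (35.5 to 38.9), and no D gene in 23.9%, 26.2% and 22.2%. TRBD2 thus stood in the order DN, CD8, CD4 without overlap, although the TRBJ2 cluster had similar shares in CD8 and DN T cells. Within the TRBJ2 cluster, to which either D gene can be joined, TRBD2 made up 42.1% for CD4, 45.4% for CD8 and 53.0% for DN T cells. The other TRBV genes had 43.1%, 44.6% and 53.96% there, so the order was that of the libraries and not peculiar to TRBV19. TRBD2 was also called in 5.31%, 6.25% and 6.38% of TRBV19 clonotypes with a TRBJ1 gene, although TRBD2 lies after that cluster. Such calls rest on a short stretch of bases between trimmed ends, which sets a limit to the D gene values.

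TRBV19 had fewer long CDR3s than the other V genes in each library. Over in-frame clonotypes the mean length was 13.89 residues (SD 1.39) in CD4, 13.78 (SD 1.38) in CD8 and 14.03 (SD 1.45) in DN T cells, with 95% intervals of 13.84 to 13.94, 13.75 to 13.81 and 13.97 to 14.08 that did not overlap. The other TRBV genes had means of 13.92, 13.93 and 14.23 residues, within the interval of TRBV19 in CD4 and above it in CD8 and DN T cells. A CDR3 of 16 or more residues was found in 10.4% (9.32 to 11.5) of TRBV19 clonotypes in CD4, 9.28% (8.61 to 9.996) in CD8 and 12.9% (11.7 to 14.2) in DN T cells, against 12.2%, 13.5% and 18.4% for the other TRBV genes. The most common length was 14 residues, in 32.8%, 32.0% and 31.9% of TRBV19 clonotypes.

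**Figure D3:**
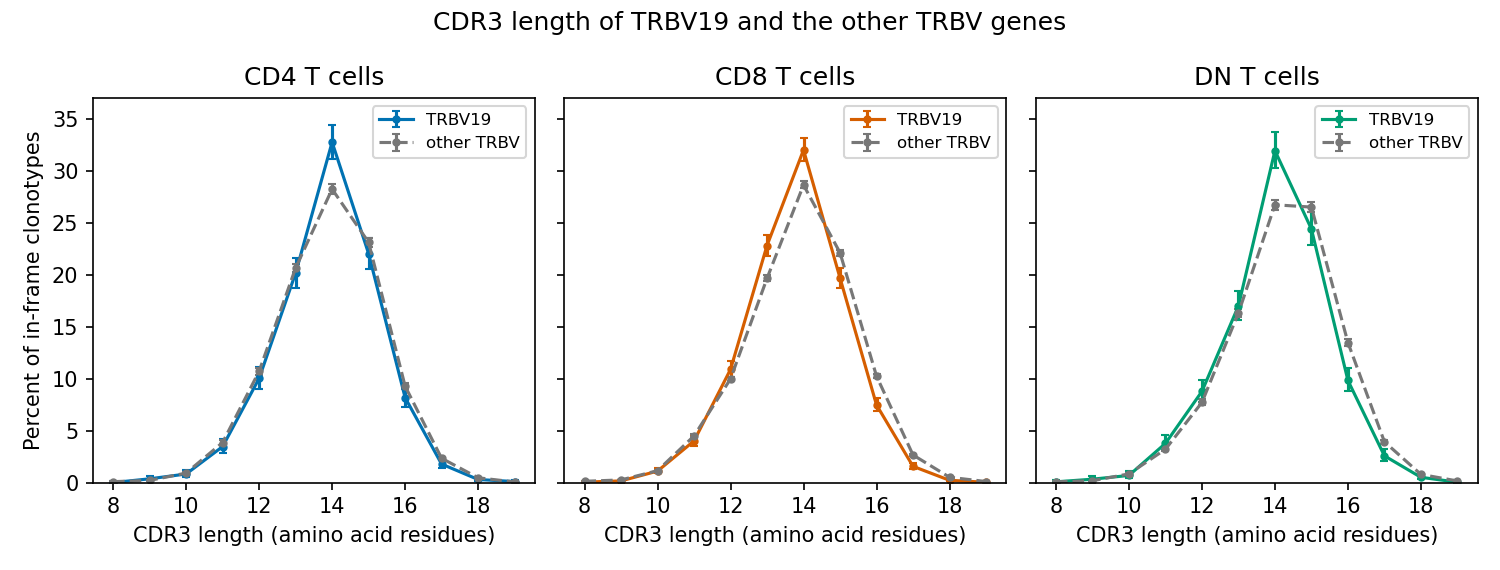
Percent of in-frame clonotypes at each CDR3 length from 8 to 19 residues for TRBV19 (solid) and for all other TRBV genes (dashed) in the CD4, CD8 and DN libraries, with 95% Wilson intervals. TRBV19 peaks at 14 residues (32.8%, 32.0% and 31.9%), and from 15 to 18 residues its lines run below those of the other V genes.

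Between libraries the junction varied more in length than the V or the J bases. TRBV19 clonotypes kept on average 12.3 (CD4), 12.6 (CD8) and 12.5 (DN) bases of the V start and 18.4, 18.1 and 17.97 bases of the J end, with 10.99, 10.6 and 11.6 bases between them (SD 4.27, 4.14 and 4.31). All 14 bases of the V start were kept in 41.4% (39.7 to 43.2) of TRBV19 clonotypes in CD4, 50.5% (49.3 to 51.7) in CD8 and 47.6% (45.7 to 49.4) in DN T cells. An added base that happens to match is counted as kept, so these are upper values.

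The fifth residue, which the V start begins, also set CD4 T cells lowest, while CD8 and DN T cells overlapped in both measures. It was isoleucine in 35.7% (34.0 to 37.4) of in-frame TRBV19 clonotypes in CD4, 43.8% (42.6 to 45.0) in CD8 and 41.9% (40.1 to 43.8) in DN T cells, over CDR3s of 11 or more residues. Isoleucine at this place marks TRBV19, since 0.283%, 0.241% and 0.328% of other TRBV clonotypes had it. The next most frequent residue was proline (12.9%, 11.8% and 12.1%). Arginine was at 10.48% (9.44 to 11.6) in CD4, above the 6.90% (6.32 to 7.53) of CD8 and the 6.86% (5.97 to 7.87) of DN T cells. Methionine was at 7.78%, 8.27% and 7.01%.

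Hydrophobic residues at CDR3 positions 6 and 7, counted from the cysteine, are known to favour self-reactive TCRs. Self-reactivity itself was not measured here. At least 1 of these positions held phenylalanine, isoleucine, leucine, methionine, valine, tryptophan or tyrosine in 24.0% (22.5 to 25.6) of TRBV19 clonotypes in CD4, 30.8% (29.7 to 31.9) in CD8 and 39.9% (38.1 to 41.8) in DN T cells, over CDR3s of 11 to 18 residues. The libraries thus stood in the order CD4, CD8, DN without overlap. The other TRBV genes gave 25.03%, 29.7% and 37.6%, and 11 of the 13 larger V genes, TRBV19 included, had the same order. TRBV19 was at rank 9 of the 13 in CD4, rank 6 in CD8 and rank 5 in DN T cells. Both positions held such a residue in few TRBV19 clonotypes, and there the intervals overlapped. The shares were 1.14% (0.814 to 1.58) in CD4, 1.34% (1.10 to 1.65) in CD8 and 1.76% (1.33 to 2.33) in DN T cells.

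These residues also differed with where a TRBV19 clonotype was found. Of those found only in CD8 T cells, 30.1% (28.9 to 31.3) had such a residue, and of those found only in DN T cells 39.7% (37.7 to 41.8). Those found in CD8 and DN but not in CD4 T cells were at 40.9% (35.9 to 46.0). Clonotypes found only in CD4 T cells were at 22.6% (21.1 to 24.2), and those in CD4 and CD8 but not DN at 25.7% (19.2 to 33.5). Those in CD4 and DN but not CD8 were at 40% (31.1 to 49.6), and those in all 3 libraries at 40.5% (31.9 to 49.8). Every group that included DN T cells was thus near the value of DN alone. By size the intervals overlapped in each library, with 38.9%, 41.1% and 41.7% in DN T cells for clonotypes with 1 read, 2 to 9 reads, and 10 or more.

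**Figure D4:**
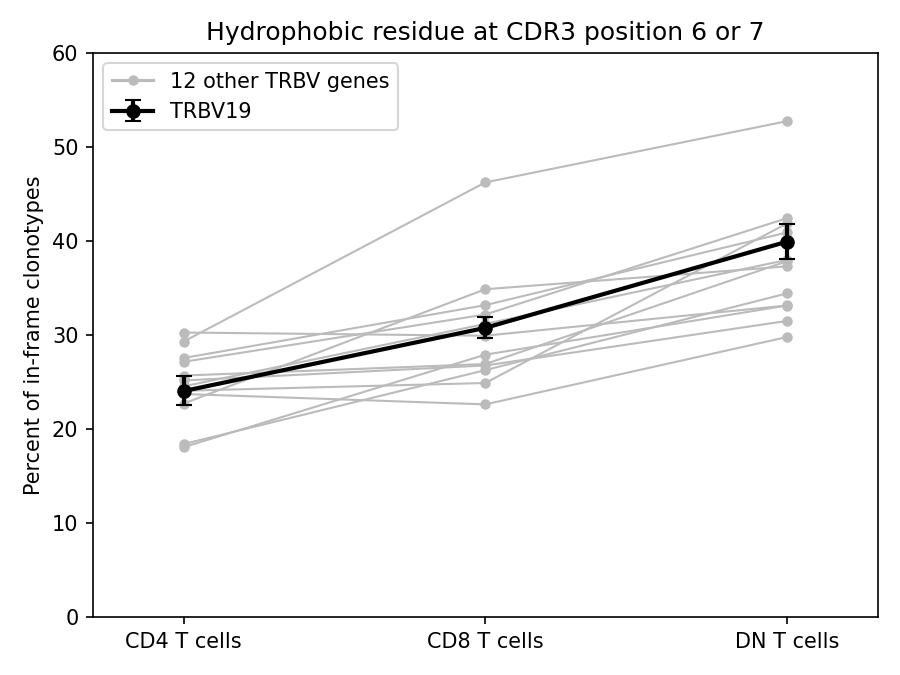
Percent of in-frame clonotypes with a hydrophobic residue at CDR3 position 6 or 7 in the CD4, CD8 and DN libraries, for TRBV19 (black, with 95% Wilson intervals) and for 12 other V genes with at least 1% of reads in every library (grey). TRBV19 runs from 24.0% over 30.8% to 39.9%, within the range of the other genes.

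TRBV19 clonotypes were smaller on average than those of the other V genes. They had 2.66 reads each for CD4, 1.68 for CD8 and 4.06 for DN T cells, against 3.01, 1.87 and 4.68 for the other TRBV genes, and TRBV19 was at ranks 11, 10 and 9 among the 13 larger V genes. Clonotypes with 1 read made up 63.0% (61.3 to 64.6), 71.2% (70.1 to 72.2) and 56.9% (55.1 to 58.6) of TRBV19 clonotypes. For the other TRBV genes these shares were 62.0%, 68.7% and 56.4%. At least 10 reads were reached by 106 TRBV19 clonotypes (3.22%) for CD4, 60 (0.845%) for CD8 and 184 (6.03%) for DN T cells. The other TRBV genes had 4.16%, 1.18% and 6.95%, in the same order of libraries.

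TRBV19 reads were more concentrated in CD4 and DN than in CD8 T cells. The 10 largest clonotypes held 15.1% (14.3 to 15.8) of TRBV19 reads in CD4, 5.49% (5.09 to 5.91) in CD8 and 17.3% (16.7 to 17.98) in DN T cells. Among clonotypes of 1 library only, the 10 largest held 7.84%, 1.998% and 5.59%, so that CD4 then stood above DN T cells. It took 319 clonotypes to hold 50% of TRBV19 reads for CD4, 1587 for CD8 and 117 for DN T cells. These were 9.68%, 22.4% and 3.83% of TRBV19 clonotypes. The other TRBV genes needed 6.89%, 18.8% and 3.01% of theirs, in the same order of libraries. Their 10 largest held 4.54% (CD4), 4.52% (CD8) and 5.74% (DN) of their reads, out of 41511, 74114 and 38897 clonotypes. At the depth of the CD4 library, 6505 TRBV19 clonotypes would be expected in CD8 and 2447 in DN T cells, against the 3296 of CD4 T cells. Among the 100 largest clonotypes of each whole library, 6, 7 and 6 used TRBV19.

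The largest TRBV19 clonotype of CD4 T cells, CD4-1 (TRBJ2-7), had 293 reads and ranked ninth in its library, with 0 reads in CD8 and 2 in DN T cells. CD4-2 (TRBJ2-5) had 189 reads in the CD4 library against 2 in CD8 and 0 in DN T cells, and CD4-3 (TRBJ2-7) had 181, 3 and 5. These 3 clonotypes were thus nearly confined to the CD4 library. At 0 reads, the limit that 3 counts set was 0.00199% of TCR beta reads in CD8 and 0.00154% in DN T cells.

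Of CD8 T cells, CD8-1 (TRBJ2-3) was the largest, with 184 reads against 3 in CD4 and 1 in DN T cells. CD8-2 (TRBJ2-7) had 80 reads in CD8, 2 in CD4 and 6 in DN T cells. CD8-3, also with TRBJ2-7, had 62 reads in CD8, 0 in CD4 and 23 in DN T cells. CD8-3 was shared with DN T cells far more than CD8-1 was, at 28.8% of its CD8 share against 0.422%.

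In DN T cells the largest was DN-1 (TRBJ1-1), with 352 reads in DN, 59 in CD8 and 11 in CD4 T cells. It held 0.181% (0.163 to 0.201) of DN reads, where CD4-1 held 0.219% (0.196 to 0.246) of CD4 reads. DN-2, with the same J gene, had 311, 27 and 7 reads. DN-3 (TRBJ2-1) had 304, 33 and 8 reads, and DN-4 (TRBJ1-4) had 290, 31 and 5. DN-6 (TRBJ1-6) followed the same pattern with 181, 34 and 9 reads. DN-1, DN-3, DN-4 and DN-6 were also among the 10 largest TRBV19 clonotypes of CD8 T cells, and no TRBV19 clonotype was among the 10 largest of CD4 T cells and of another library.

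**Figure D5:**
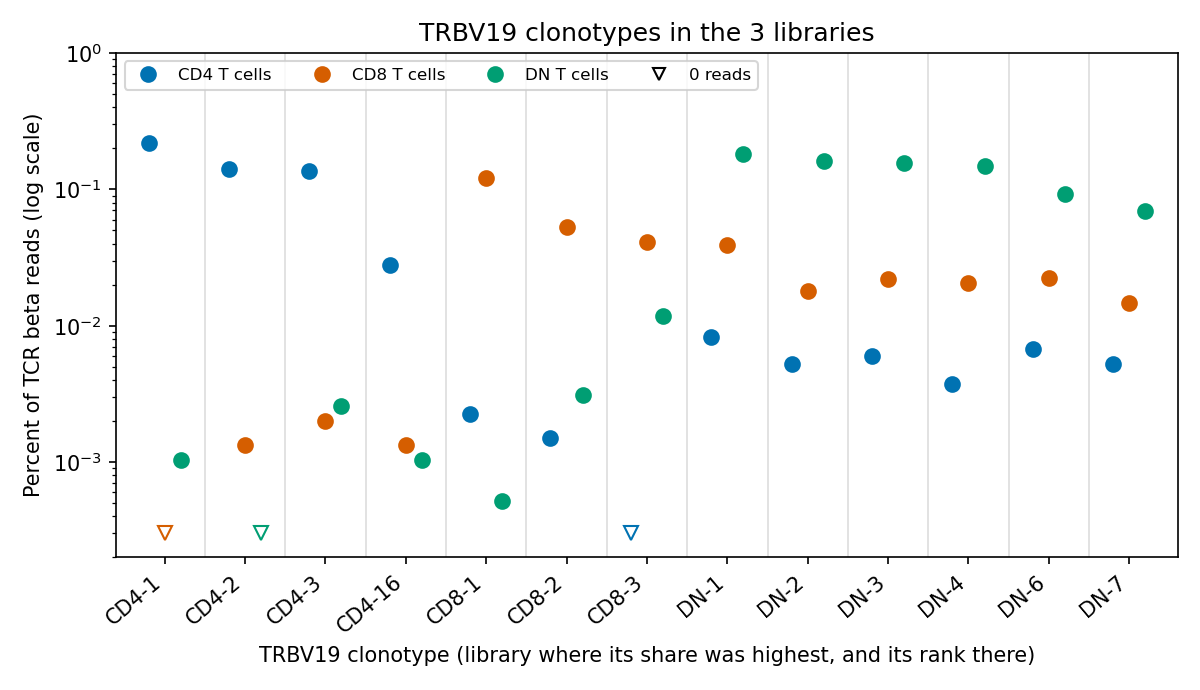
Percent of TCR beta reads, on a log scale, that each named TRBV19 clonotype held in the CD4, CD8 and DN libraries, with open triangles at the bottom for 0 reads. The clonotypes named for DN T cells are highest there by the way they were named, and all lie higher in CD8 than in CD4. DN-1 had 352 reads in DN, 59 in CD8 and 11 in CD4 T cells. CD4-1 and CD8-1 had at most 3 reads outside their own library.

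All 10 of the largest TRBV19 clonotypes of DN T cells were found in CD8 T cells, with 8 to 59 reads, and in CD4 T cells, with 4 to 15 reads. Their shares in CD8 T cells were 7.86% to 24.2% of their DN shares (median 17.4%), and in CD4 T cells 2.51% to 11.4% (median 4.597%). The 10 largest clonotypes of the other TRBV genes in DN T cells gave medians of 20.1% and 5.40%. Of the 10 largest TRBV19 clonotypes of CD4 T cells, 6 were found in CD8 and 5 in DN T cells, with at most 3 and 5 reads. The 10 largest CD4 clonotypes of the other TRBV genes were larger, with 5676 CD4 reads together against 1323. All were found in both libraries, with 1 to 164 reads in CD8 and 1 to 323 in DN T cells. Their median share was 1.57% (CD8) and 0.397% (DN) of that in CD4 T cells, against 1.20% and 0.235% for TRBV19. All 10 of CD8 T cells were found in DN T cells, with 1 to 352 reads, and 7 in CD4 T cells. The 10 largest CD8 clonotypes of the other TRBV genes, with 6274 reads together against 655, were all found in both of the other libraries. Their median share was 1.32% (DN) and 1.59% (CD4) of that in CD8 T cells, against 17.3% and 6.28% for TRBV19. A TRBV19 clonotype that some other library held with 100 or more times the reads was seen 3 times in DN T cells and 0 times in CD4 and CD8 T cells. Over all V genes each library held such clonotypes. Without them 44781 of 44807 TCR beta clonotypes were left in CD4, 81190 of 81212 in CD8 and 41921 of 41948 in DN T cells. Whether carry-over of reads between the libraries was controlled is not given in the sources used here, and its part in these and the following values was not tested.

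Over all TRBV19 clonotypes, DN T cells shared more with CD8 than with CD4 T cells. In DN T cells 500 of 3051 TRBV19 clonotypes, or 16.4% (15.1 to 17.7), were also found in CD8 T cells, where the background over all TCR beta clonotypes was 18.5%. Found in CD4 T cells were 231, or 7.57% (6.69 to 8.56), against a background of 8.95%. By reads, the clonotypes shared with CD8 T cells held 60.2% of TRBV19 reads in DN T cells, and those shared with CD4 T cells 43.4%. The other TRBV genes were at 67.0% and 49.8%. The CD8 library held more TRBV19 clonotypes in which to find a match than the CD4 library, 7098 against 3296.

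Seen from CD8 T cells, 7.04% (6.47 to 7.66) of TRBV19 clonotypes were found in DN T cells (background 9.57%) and 3.68% (3.26 to 4.14), 261 in number, in CD4 T cells (background 4.8%). From CD4 T cells, 7.92% (7.05 to 8.89) were found in CD8 T cells (background 8.7%) and 7.01% (6.19 to 7.93) in DN T cells (background 8.38%). TRBV19 was below the background in all 6 of these shares, which are the overlaps of the libraries in pairs, each counted from both sides. They are therefore not separate results. For CD4 clonotypes found in CD8 T cells the background lay within the TRBV19 interval. TRBV19 clonotypes also had fewer reads each than the others, as with 4.06 against 4.68 in DN T cells. The part of clone size in the lower sharing was not tested. With at least 2 reads in each of the libraries, DN and CD8 T cells shared 222 TRBV19 clonotypes, DN and CD4 T cells 80, and CD4 and CD8 T cells 91. Over all TCR beta clonotypes these numbers were 3523, 1393 and 1357.

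Of the 12570 different TRBV19 clonotypes, 117 were in all 3 libraries, 383 in CD8 and DN T cells only, 144 in CD4 and CD8 T cells only and 114 in CD4 and DN T cells only. The 117 held 40.5% of TRBV19 reads in DN T cells, against 9.88% in CD4 and 8.91% in CD8 T cells. They made up 0.931% of the different TRBV19 clonotypes, where the clonotypes found in all 3 libraries were 1.28% of those of the other TRBV genes and held 46.4% (DN), 15.6% (CD4) and 15.8% (CD8) of their reads. Those in CD8 and DN only made up 3.05% with TRBV19 against 3.84%, those in CD4 and CD8 only 1.15% against 1.28%, and those in CD4 and DN only 0.907% against 1.20%. Clonotypes shared by CD4 and CD8 T cells only had the shortest junctions, with 8.57 bases (SD 3.74, 142 in-frame clonotypes). Those found in DN T cells only had the longest, with 11.8 bases (SD 4.39, 2173 in-frame clonotypes).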

How the data were processed

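TCR alpha and beta libraries of CD4, CD8 and DN T cells, 1 per subset, were prepared with the Takara SMARTer Mouse TCRα/β kit. The authors made clonotypes from the reads with MiXCR (alignment, assembly and export), whose version, settings and filters are not given in the sources used here. The deposited tables give each clonotype's count of reads, without normalization, and its fraction of the library's reads, which equalled the count divided by the table's total. Clonotypes without TRBV and TRBJ genes (84, 101 and 78) were left out. At these depths 3 counts made up 0.00224%, 0.00199% and 0.00154% of the TCR beta reads of CD4, CD8 and DN T cells.

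No filter on reads was applied. The common V start and J ends were extended while at least 65% of the clonotypes matching so far had the next base, for J genes with at least 100 clonotypes and up to 25 bases. Clonotypes were named by rule: the 3 largest TRBV19 clonotypes of each library, any among the 10 largest of more than 1 library, and the largest out-of-frame one of each. Named V genes were the neighbours of TRBV19 in each library and the 3 nearest in pattern. The members, lists and measures were chosen with earlier results of these data known. RefSeq (GRCm38.p6) served for names and gene order only, with all 29 V and 13 J genes matched. The functions were tested on simulated data. Values were computed with pandas 2.3.3, NumPy 2.4.6 and SciPy 1.17.1 under Python 3.11.15, and drawn with matplotlib 3.10.9.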

Additional observations from a re-analysis of the deposited data

How the results depend on the processing

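The 171 values recomputed under other settings gave 102 within the interval of the reported value (for numbers of clonotypes, within 1.5 times), 68 outside it and 1 turned round. Of the 42 ratios of TRBV19 shares, 34 lay within the interval. The order CD8 above CD4 and DN T cells held in every setting for reads and for clonotypes. The value that turned was the DN to CD4 ratio of reads, at 1.10 in clonotypes of 1 library only. The DN to CD4 ratio of clonotypes, whose interval included 1, was 1.003 with at least 2 reads and 1.008 in clonotypes of 1 library only. There the read shares were 7.09%, 8.70% and 7.81% in CD4, CD8 and DN T cells, the DN to CD8 ratio 0.898, and the clonotype shares 9.03% (CD8) and 7.53% (DN). In the same clonotypes, chosen as an alternative for the following after seeing the data, the DN in-frame share was 89.2% and the top 10 shares 7.84%, 1.998% and 5.59%, while the J cluster and D shares and the lengths stayed within their intervals. The cause of these changes was not tested.

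With at least 2 reads, the read shares were 6.34%, 7.26% and 6.24% and the CD8 clonotype share 8.11%. The ratios of DN and of CD4 to CD8 T cells were then 0.860 and 0.873 over reads and 0.889 and 0.886 over clonotypes. The numbers of TRBV19 clonotypes were 1221, 2046 and 1316, the in-frame shares 94.1%, 97.5% and 92.9%, the mean lengths 13.79 in CD4 and 13.68 residues in CD8 T cells, and the top 10 shares 19.7%, 9.51% and 20.1%. Without the largest TRBV19 clonotype the read shares were 6.36% in CD4 and 6.21% in DN T cells. Without the 10 largest they were 5.64%, 7.51% and 5.33%, with ratios to CD8 T cells of 0.710 for DN and 0.7502 for CD4. The top 10 share was 15.9% in CD4 and 18.3% in DN T cells for in-frame reads, and 12.2%, 4.20% and 15.4% for ranks 2 to 11.

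Counted by reads, the in-frame shares were 94.8%, 96.4% and 93.8%, the TRBJ2 shares 59.6% in CD4 and 68.3% in CD8 T cells, the TRBD2 shares 24.7% in CD4 and 33.4% in DN T cells, and the mean lengths 13.79, 13.67 and 13.90 residues. The hydrophobic shares, for which reads and a minimum of 2 reads were chosen as alternatives after seeing the data, were 29.2% in CD8 and 37.6% in DN T cells by reads. The shared reads were 20.3% (CD4 in CD8), 18.1% (CD4 in DN), 11.9% (CD8 in CD4), 17.8% (CD8 in DN), 43.4% (DN in CD4) and 60.2% (DN in CD8). By amino acid CDR3 these shares were 14.7%, 10.1%, 6.87%, 10.3%, 11.2% and 24.2%. With at least 2 reads in both libraries they were 4.45% (CD8 in CD4), 10.9% (CD8 in DN) and 6.08% (DN in CD4).

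No paired analysis was possible because each subset had 1 library and no test was made. Most TRBV19 clonotypes had 1 read, so their absence from another library does not show that they were absent from its cells.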

Other observations

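Some TRBV19 CDR3s were encoded by more than 1 nucleotide sequence. Over the 3 libraries, 9666 TRBV19 amino acid CDR3s (with their J gene) had 1 nucleotide sequence, 734 had 2 and 174 had 3 or more. Of these groups 0.890%, 5.59% and 24.1% were found in all 3 libraries, although a CDR3 with several sequences has more chances to be found. In CD8 T cells 7.33% of TRBV19 amino acid CDR3s had several nucleotide sequences, in CD4 3.85% and in DN T cells 4.02%, where the other TRBV genes had 6.76%, 5.39% and 5.18%. By amino acid CDR3, DN and CD8 T cells shared 639, DN and CD4 T cells 295, CD4 and CD8 T cells 427, and all 3 libraries 169. Of DN amino acid CDR3s 24.2% were found in CD8 (other TRBV genes 25.6%) and 11.2% in CD4 T cells (12.7%), of CD8 ones 10.3% in DN (13.2%) and 6.87% in CD4 T cells (8.32%), and of CD4 ones 14.7% in CD8 (14.98%) and 10.1% in DN (11.8%).

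The CDR3 with the most nucleotide sequences, chosen after its values were seen, had 14 residues and TRBJ2-7. Of its 12 sequences 10 were in CD8 and 5 in DN T cells, with 60 and 14 reads, and it had 0 reads in CD4 T cells. The 3 sequences found in CD8 and DN T cells are shown, with the junction in capitals:

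variant 1: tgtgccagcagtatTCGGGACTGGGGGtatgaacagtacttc
variant 2: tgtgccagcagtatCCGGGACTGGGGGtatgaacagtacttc
variant 3: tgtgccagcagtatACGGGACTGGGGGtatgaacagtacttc

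Variant 1 had 22 reads in CD8 and 7 in DN T cells, variant 2 had 17 and 4, and variant 3 had 1 and 1. Variants 2 and 3 each differed from variant 1 at 1 base. Of the 12 sequences 7 had at most 2 reads over the 3 libraries, and the part of sequencing error in these was not tested.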
